A study of Oryza sativa with 4 samples.

Results

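Actin-depolymerizing factors (ADFs) are small actin-binding proteins of the cofilin type. They sever actin filaments and speed the loss of subunits from the ends of the filaments, so that actin can be used again for new filaments. Root hairs and pollen tubes grow at the tip, and this kind of growth depends on the turnover of fine actin filaments near the apex and on longer actin cables along which vesicles are carried. In Arabidopsis, members of the family differ in where they are active, with some found mainly in pollen and others in vegetative tissues or root hairs.

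The ADF family of rice was followed in root hairs through 10 genes, taken by their RAP (Rice Annotation Project) identifiers, out of 29690 genes with such an identifier on the array. The 10 genes had 14 of the 42477 probes, with 2 probes for each of 4 genes and 1 probe for each of 6. Os02g0663800, annotated as an actin-depolymerizing factor, and Os07g0484200, annotated as a pollen-specific actin-depolymerizing factor, are called the tip-growth members, since both stand in the study's list of root hair-preferential genes. That list was drawn up with these same arrays, so it is no independent evidence on them. The other 8 members were Os03g0243100, Os03g0780400, Os03g0820500, Os03g0820600, Os04g0555700, Os05g0113400, Os10g0521100 and Os12g0628100. By their identifiers, 4 of the 10 genes lie on chromosome 3 and 1 each on chromosomes 2, 4, 5, 7, 10 and 12. The RefSeq table also held 10 loci with an OsADF name, in the same number on each of these chromosomes, but 0 of the 10 identifiers could be matched to it, so no OsADF number is given to any member.

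RNA came from root hairs that were brushed off frozen seminal roots of untreated seedlings, 3 days after germination, and 1 sample was hybridised to each of 4 one-colour (Cy3) arrays. The labels give the cultivar of 1 array as Lon-gin and that of the other 3 as Don-gin, while the methods describe biological replicates of 1 cultivar, Dongjin. The Lon-gin-labelled array and replicate 3 lay on slide 2, and replicates 1 and 2 on slide 1. The samples were enriched for root hairs by brushing, and the sources used here do not give the number of seedlings in each.

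Slide and level moved together over the whole array. Before scaling, the 75th percentile of log2 signal was 11.80 on the Lon-gin-labelled array and 11.49 on replicate 3, against 10.59 and 10.73 on replicates 1 and 2, and 88.6% and 85.4% of the probes on slide 2 were well above background, against 71.5% and 74.1% on slide 1. Levels are therefore given as log2 of the processed spot signal after each array was scaled to its 75th percentile. Different probes bind their targets with different strength, so the level of a gene is not set against that of another gene, and only differences between arrays are compared across members. As a check of the tissue, OsCSLD1 (Os10g0578200), a cellulose synthase-like gene needed for root hair elongation, was well above background on all arrays at 14.40 ± 0.37 (SD, n = 4). It was the only one of 3 root hair markers with an identifier annotated in the study's list or the RefSeq table. It is itself in the study's list, which was selected on these arrays. Of the markers drawn up for other root tissues, 0 of 6 had an identifier annotated in either. The probe names of the array were not used for this match, so RNA from other root cells was not assessed here. The paper checked its samples by RT-PCR with 2 marker genes. There OsBOR1, a gene of stele, endodermis and exodermis, was only weakly detected in the hairs. The root hair marker OsEXPA17 was strongly amplified in them.

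The promoter of Os07g0484200 is listed in the study's supplementary tables with a root hair-specific element, a short sequence motif found upstream of root hair genes. It is shown because it is the only regulatory sequence of a member at hand. It lies on the minus strand of chromosome 7 and is written 5′ to 3′, with its CACG letters in capitals.
Os07g0484200: atgatgccatgCACGtc
No element was listed there for Os02g0663800. The study reports such elements, known from Arabidopsis root-hair genes, in the promoters of many of its listed genes. Having one is thus not particular to Os07g0484200. The promoters of the other members were not searched here, and whether the element acts was not tested.

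Transcripts of the 10 members followed here were detected. All 10 members had a probe well above background on each of the 4 arrays, which held for 67.9% of all genes on the array, and the count was also 10 when every probe of a gene had to pass, which held for 64.6%. A scaled log2 signal above 8 on every array was found for 8 of 10 members, against 40.2% of all genes. Os10g0521100 and Os12g0628100 were the exceptions and stayed below 8 on all arrays.

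**Figure D1:**
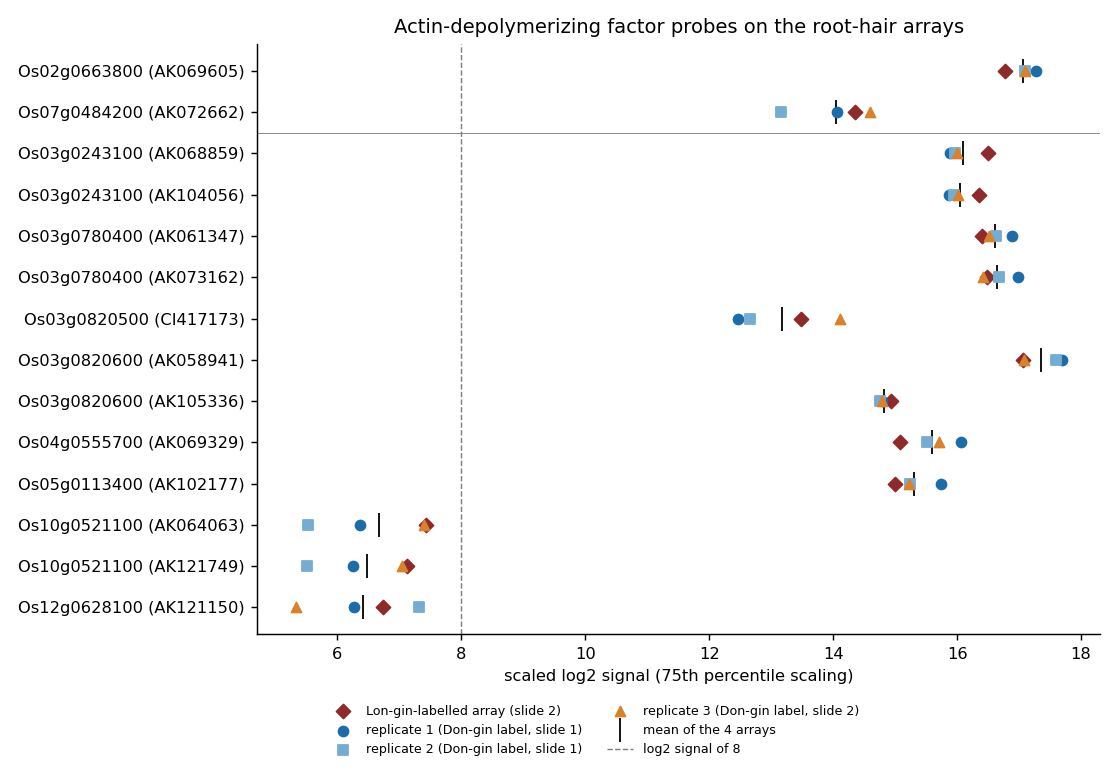
Scaled log2 signal (horizontal axis) of the 14 ADF probes, 1 line per probe, with the tip-growth members above the grey line. Symbols are the 4 arrays, black ticks their mean and the dashed line a log2 signal of 8. Os10g0521100 and Os12g0628100 lie left of the dashed line on every array, and the 4 symbols of Os07g0484200 spread more widely than those of Os02g0663800.

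Os02g0663800 was bright and steady. Its scaled log2 signal was 16.77 on the Lon-gin-labelled array and 17.10 on replicate 3, against 17.26 and 17.09 on replicates 1 and 2, with a mean of 17.06 ± 0.21 (SD, n = 4). The unscaled intensities were 175757 on the Lon-gin-labelled array and 177083 on replicate 3, against 106637 and 103964 on replicates 1 and 2. The Lon-gin-labelled array was the lowest after scaling, and the slides overlapped, while before scaling both arrays of slide 2 were above both of slide 1. The highest and lowest arrays were 1.41-fold apart.

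Os07g0484200 was less even. Its scaled log2 signal was 14.36 on the Lon-gin-labelled array and 14.60 on replicate 3, against 14.06 and 13.15 on replicates 1 and 2, with a mean of 14.04 ± 0.63 (SD, n = 4). The unscaled intensities were 32951 on the Lon-gin-labelled array and 31321 on replicate 3, against 11547 and 6782 on replicates 1 and 2. Both arrays of slide 2 were above both of slide 1, and replicate 2 was the lowest. The highest and lowest arrays were 2.73-fold apart.

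Among the other members, Os03g0780400, with 2 probes, gave scaled log2 signals of 16.45 on the Lon-gin-labelled array and 16.46 on replicate 3, against 16.94 and 16.65 on replicates 1 and 2, as the mean of its probes. Os05g0113400 gave 14.99 on the Lon-gin-labelled array and 15.22 on replicate 3, against 15.75 and 15.24 on replicates 1 and 2. In both genes replicate 1 was the highest array and the slides did not overlap, with slide 2 below. The means were 16.62 ± 0.23 for Os03g0780400 and 15.30 ± 0.32 for Os05g0113400 (SD, n = 4 each).

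Os04g0555700 gave scaled log2 signals of 15.08 on the Lon-gin-labelled array and 15.70 on replicate 3, against 16.06 and 15.52 on replicates 1 and 2, with a mean of 15.59 ± 0.41 (SD, n = 4). Here the Lon-gin-labelled array was again the lowest, but the slides overlapped. Os03g0243100 gave 16.43 on the Lon-gin-labelled array and 16.01 on replicate 3, against 15.88 and 15.96 on replicates 1 and 2, with a mean of 16.07 ± 0.25 (SD, n = 4). For it the Lon-gin-labelled array was the highest of the 4, in both of its probes, and replicate 1 the lowest.

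Os03g0820500 and Os03g0820600 have adjoining identifiers on chromosome 3. Os03g0820500 gave scaled log2 signals of 13.49 on the Lon-gin-labelled array and 14.12 on replicate 3, against 12.46 and 12.66 on replicates 1 and 2, with a mean of 13.18 ± 0.77 (SD, n = 4). Slide 2 was above slide 1 without overlap, and the highest and lowest arrays were 3.15-fold apart. Os03g0820600 was read by a probe each for 2 annotated transcripts, which disagreed. The probe of transcript Os03t0820600-01 gave 17.06 on the Lon-gin-labelled array and 17.08 on replicate 3, against 17.69 and 17.60 on replicates 1 and 2. The probe of transcript Os03t0820600-02 gave 14.93 on the Lon-gin-labelled array and 14.79 on replicate 3, against 14.78 and 14.75 on replicates 1 and 2. The first probe was lower on slide 2 without overlap, and the second was nearly level, with an SD of 0.0778 over the 4 arrays against 0.334 for the first. After each probe was centred on its own mean, these 2 probes were up to 0.411 apart on the log2 scale on 1 array, against 0.105 to 0.173 for the probe pairs of Os03g0243100, Os03g0780400 and Os10g0521100.

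The members with signals below 8 were Os10g0521100 and Os12g0628100. Os10g0521100 gave scaled log2 signals of 7.28 on the Lon-gin-labelled array and 7.21 on replicate 3, against 6.31 and 5.52 on replicates 1 and 2, with a mean of 6.58 ± 0.83 (SD, n = 4). Slide 2 was above slide 1 for both of its probes, whose unscaled intensities were 166 to 270.0 on slide 2, against 33.9 to 55.8 on slide 1. Os12g0628100 gave 6.74 on the Lon-gin-labelled array and 5.33 on replicate 3, against 6.28 and 7.32 on replicates 1 and 2, with a mean of 6.42 ± 0.84 (SD, n = 4). No slide pattern was seen for it, since replicate 3 was the lowest array and replicate 2 the highest. Its arrays were 3.99-fold apart at most, and 0 of 10 members passed a 4-fold gap between the highest and the lowest array, which 12.0% of detected genes did.

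**Figure D2:**
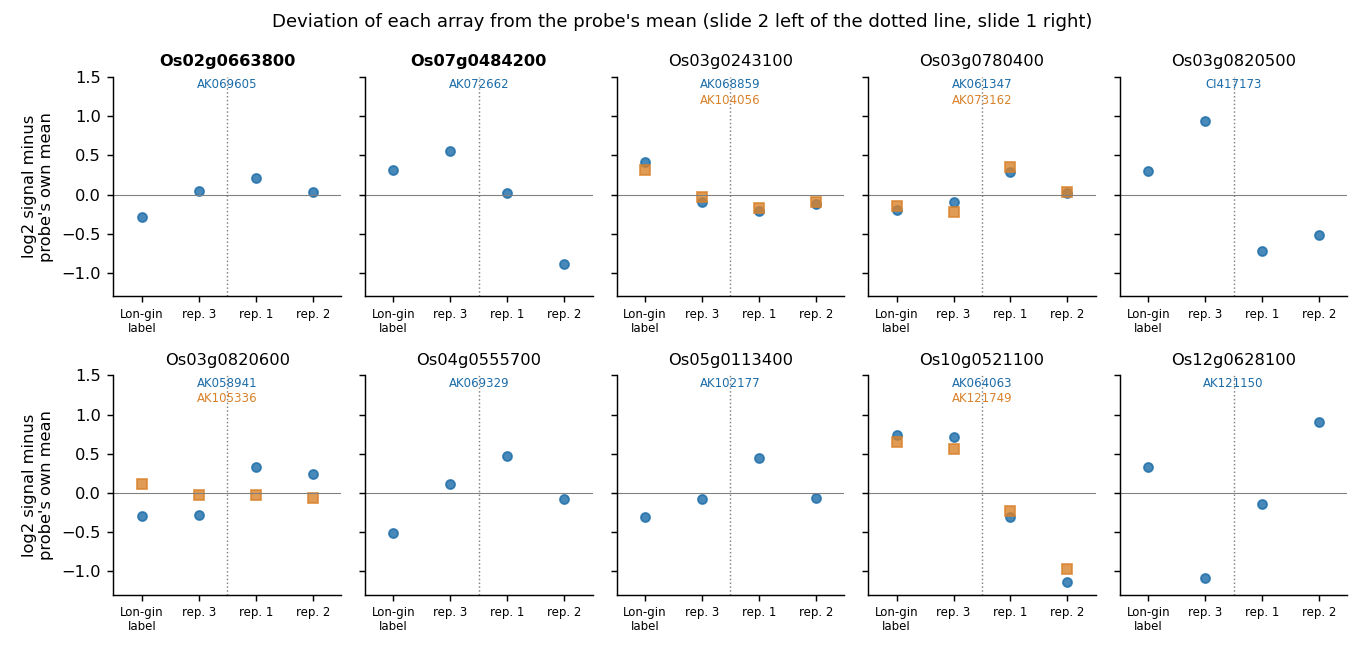
Scaled log2 signal of each ADF probe minus the probe's own mean over the 4 arrays (vertical axis), by array (horizontal axis), 1 panel per gene, with the tip-growth members in bold. Points left of the dotted line are slide 2 and those right of it slide 1; a second probe of a gene is drawn as squares. Os07g0484200, Os03g0820500 and Os10g0521100 lie higher on slide 2 than on slide 1, and the probes of Os03g0820600 part from each other.

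The spread over the arrays was larger for Os07g0484200 than for Os02g0663800. The SD of the scaled log2 signal was 0.634 for Os07g0484200 and 0.206 for Os02g0663800, against a median of 0.364 for the 8 other members and 0.382 for the 20152 genes detected on every array. A smaller SD than that of Os02g0663800 was found in 15.6% of detected genes, and a smaller SD than that of Os07g0484200 in 76.7%. Among genes with a signal above 8 on every array, the median SD was 0.323, with 20.8% of these genes below Os02g0663800 and 88.1% below Os07g0484200. Over all 4 arrays the tip-growth members thus lay on either side of the median of the rest, but this rested on replicate 2: without it the SD of Os07g0484200 was 0.272 and the median of the other members 0.443, so that both tip-growth members lay below. Without the Lon-gin-labelled array the SD of Os02g0663800 was 0.0986. Within the rest of the family, Os03g0820600 had the smallest SD, 0.144, when its probes were averaged, and Os12g0628100 the largest, 0.844.

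**Figure D3:**
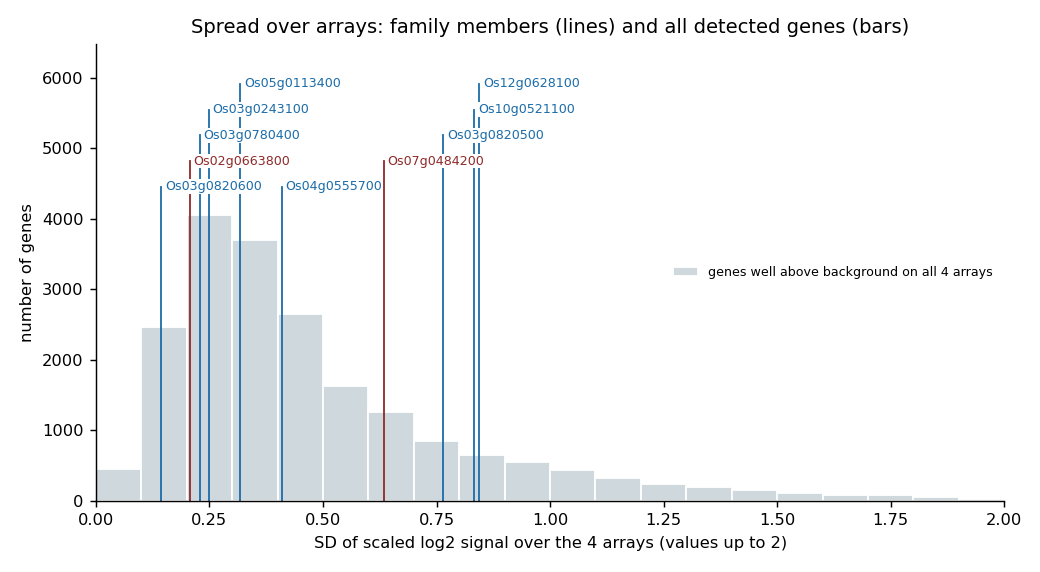
Histogram (bars) of the SD of scaled log2 signal over the 4 arrays, for genes detected well above background on every array (vertical axis, number of genes). Lines mark the ADF members, with the tip-growth members in red; their heights carry no value. Os02g0663800 lies at 0.206, within the tallest bar, and Os07g0484200 at 0.634, in the right-hand slope of the histogram.

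Patterns over the 4 arrays were compared as the root mean square difference between the log2 signals of 2 members, each centred on its own mean. The members nearest to Os02g0663800 were Os03g0780400, at 0.129, and Os05g0113400, at 0.142. Those nearest to Os07g0484200 were Os10g0521100, at 0.256, and Os03g0820500, at 0.454. These distances rest on 4 arrays that share the slides, and are a description with no test.

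The slides were compared because they are the technical batch given by the file headers. Both arrays of slide 2 were above both of slide 1 for 4 of 10 members, against 25.9% of detected genes. These were Os07g0484200, Os03g0243100, Os03g0820500 and Os10g0521100. Slide 2 lay below slide 1 in the same way for 3 of 10 (Os03g0780400, Os03g0820600 and Os05g0113400), against 27.8%. The differences that were negative for probes of these 3 genes turned positive without scaling and in the authors' values. Os03g0820600 counted as below only as the mean of its probes. Its Os03t0820600-02 probe was above on slide 2, at 14.93 and 14.79 against 14.78 and 14.75. For Os05g0113400 the nearest arrays of the slides were close, at 15.22 and 15.24. The limma comparison, with Benjamini-Hochberg adjustment, tested the 35922 probes that passed a detection filter. Of the 14 ADF probes 0 were called, against 3.15% of all probes tested. An unadjusted p under 0.05 was found for 3 of 14, against 20.7% of all probes tested. These 3 were the probe of Os03g0820500, with a difference of 1.24 between slide 2 and slide 1 (95% confidence interval 0.36 to 2.12, adjusted p = 0.144), and both probes of Os10g0521100, with 1.46 (adjusted p = 0.133) and 1.20 (adjusted p = 0.168). For the tip-growth members the difference was 0.87 for Os07g0484200 (95% confidence interval -0.18 to 1.93, adjusted p = 0.303) and -0.24 for Os02g0663800 (-0.98 to 0.49, adjusted p = 0.640), the last turning to 0.74 without scaling and to 0.59 in the authors' values. No scaling leaves a median shift of 1.08 over all probes between the slides. There 4 of 14 ADF probes were called, against 9563 of the 35922 probes tested. They were the probes of Os07g0484200, Os03g0820500 and Os10g0521100, all higher on slide 2. In the authors' values 1 of 14 was called, that of Os03g0820500, also higher on slide 2, against 3140 of 35922. What part the slide, the samples on it and the overall brightness have in these differences cannot be told apart.

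A difference between 2 probes on the same array does not depend on the scaling factor. Os03g0820500 minus the Os03t0820600-01 probe was -3.58 on the Lon-gin-labelled array and -2.97 on replicate 3, against -5.23 and -4.94 on replicates 1 and 2. The level of this difference has no meaning of its own, since the probes differ, but it changed by 1.82 between slide 2 and slide 1, the amount by which the movements of the 2 probes differed. Against the Os03t0820600-02 probe the change was 1.15. For the tip-growth pair, Os07g0484200 minus Os02g0663800 was -2.42 on the Lon-gin-labelled array and -2.50 on replicate 3, against -3.21 and -3.94 on replicates 1 and 2, a change of 1.12. For the 2 probes of Os03g0820600, Os03t0820600-01 minus Os03t0820600-02 was 2.14 on the Lon-gin-labelled array and 2.29 on replicate 3. It was 2.91 and 2.85 on replicates 1 and 2, a change of -0.67. In each of these comparisons, also in that within 1 gene, the slides did not overlap. Single genes often separated by slide too, with 25.9% of detected genes higher and 27.8% lower on slide 2. The share over other probe pairs was not computed. The two-sided exact permutation test gave p = 0.333 for each. This is the smallest p that the 6 splits of 4 arrays allow, so the test could not call any difference.

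The cultivar label set 1 array against 3. By limma, 0 of 14 ADF probes were called when the Lon-gin-labelled array was set against the Don-gin-labelled ones, against 0.00265% of all probes (1 probe), and 0 of 14 had an unadjusted p under 0.05, against 8.43% of all probes. The count over the whole array depended on the setting, with 1932 of 37689 probes called with the slide as a block and 4626 without replicate 3, and 0 of 14 ADF probes were called in both. The adjusted p lay between 0.831 and 0.936 for the ADF probes. The estimated difference was 0.42 for Os07g0484200 (95% confidence interval -1.32 to 2.16) and -0.38 for Os02g0663800 (-1.44 to 0.68), while the median over all probes was 0.15. Both intervals reach more than 2-fold lower, and that of Os07g0484200 also more than 2-fold higher, so differences of that size are not excluded. Without scaling and in the authors' values the difference of Os02g0663800 turned in sign, to 0.49 and 0.31.

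Placed against the range of the 3 Don-gin-labelled arrays, the Lon-gin-labelled array was higher for 2 of 10 members, against 25.8% of detected genes. They were Os03g0243100 and Os10g0521100. The array was lower for 4 of 10 (Os02g0663800, Os03g0780400, Os04g0555700 and Os05g0113400), against 25.8%. The mean differences of these 4 likewise turned positive without scaling and in the authors' values. Os03g0780400 was in this count by a narrow margin, at 16.45 against 16.46 on replicate 3. Its 2 probes disagreed, and 1 of them gave 16.49 on the Lon-gin-labelled array, above 16.41 on replicate 3. Within slide 2, the Lon-gin-labelled array minus replicate 3 was -0.24 for Os07g0484200, opposite in sign to the value over all arrays, and -0.33 for Os02g0663800. For the other members it lay between -0.63 for Os03g0820500 and 1.42 for Os12g0628100, with 0.06 for Os10g0521100. Slide and cultivar label overlap in these arrays, since no Lon-gin-labelled array lay on slide 1.

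**Figure D4:**
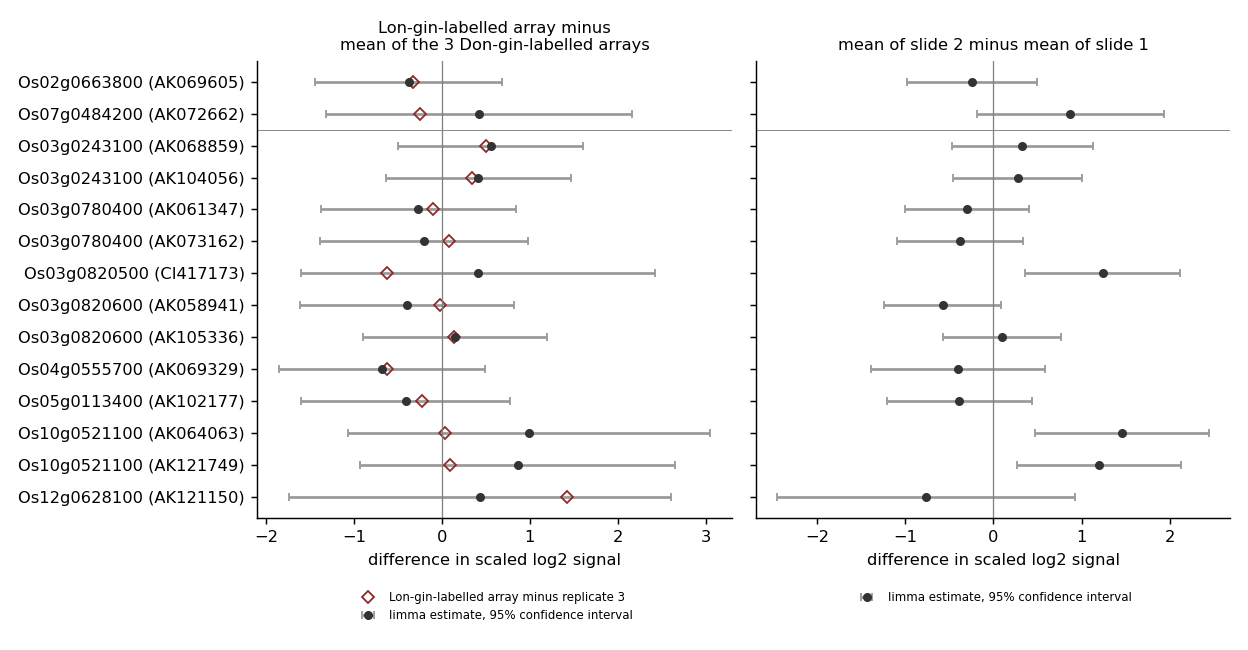
Differences in scaled log2 signal (horizontal axes) for the 14 ADF probes, with the tip-growth members above the grey line. Left, the Lon-gin-labelled array minus the mean of the Don-gin-labelled arrays (dots) or minus replicate 3 alone (diamonds); right, slide 2 minus slide 1. Dots and bars are limma estimates with 95% confidence intervals, which leave out 0 only for Os03g0820500 and both probes of Os10g0521100, on the right.

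Other genes of actin-based growth were taken from a list of 4 that the study's tables annotate, all of them in its root hair-preferential list. Both limma comparisons called 0 of these 4 genes, against 0.00265% of all probes for the cultivar label and 3.15% for the slides, so this count does not set them apart from other genes. Os03g0747900 encodes a myosin, a motor that moves along actin filaments, and its listed probe gave 13.28 on the Lon-gin-labelled array and 14.08 on replicate 3, against 13.87 and 13.23 on replicates 1 and 2. Its arrays did not separate by slide. The 3 probes of this gene had means of 13.61 ± 0.43 (the listed one), 13.58 ± 0.40 and 6.25 ± 0.36 (SD, n = 4 each), and the first and the second had the arrays in the same order. The myosin heavy chain gene Os01g0713900 had a mean of 11.93 ± 0.39, and Os01g0551800, an ABI-like gene of the kind that acts in actin nucleation, had 13.28 ± 0.35 (SD, n = 4 each). The Lon-gin-labelled array was the lowest for both.

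Replicate 2, the lowest array for Os07g0484200, was also the lowest for Os02g0641000, which encodes a LIM protein, a class that in plants includes actin-bundling proteins, with 14.08 against a mean of 14.63 ± 0.42 (SD, n = 4). The root hair gene OsCSLD1 was lowest on it too, at 14.03, and so was the listed probe of the myosin gene Os03g0747900, at 13.23. The myosin heavy chain gene and the ABI-like gene were lowest on the Lon-gin-labelled array instead. Over the 409 probes of the study's list, however, replicate 2 was the lowest array for 16.1% and replicate 1 for 40.8%, against 19.6% and 27.2% of all probes well above background. Among the 14 ADF probes, in which 4 genes have 2 probes each, replicate 2 was the lowest array for 4 and the Lon-gin-labelled array for 5. These are 28.6% and 35.7%, against 19.6% and 26.8% of all probes well above background. The lowest array was replicate 1 for 3 ADF probes (21.4%) and replicate 3 for 2 (14.3%), against 27.2% and 26.4%. The part of root hair content in the low value of Os07g0484200 on replicate 2 was not tested.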

How the data were processed

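Spot intensity, in 1 colour, was extracted by the authors with Agilent Feature Extraction; the file headers give version 11.5.1.1 and the submitters' processing notes 9.1. The log2 value table that the authors deposited ranks the spots of each array exactly as their median signal does (rank correlation 1.0). Its medians were 8.19 on both arrays of slide 2 and 7.48 on both of slide 1, and the sources used here do not name its normalization. It served as an alternative.

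Without control spots, 43734 spots remained, and 126 spot values with an outlier flag were dropped where a probe had another spot. No probe was saturated. Each probe's log2 processed signals were averaged, scaled to the array's 75th percentile with the mean percentile added back, and averaged over the probes of a gene. Comparisons used limma 3.58.1 in R 4.3.3, with 2 residual degrees of freedom and Benjamini-Hochberg adjustment over all probes that passed a detection filter (the Lon-gin-labelled array or all 3 others; both arrays of a slide). Shares and medians over all probes in these comparisons refer to the probes that passed, 37689 for the cultivar label and 35922 for the slides. A single array in a group takes its spread from the other group. The fits were tested on simulated data; the simulated noise and changes were revised, to larger changes, after a first version recovered none, so power is low and a missed threshold does not show that values were alike. The number of arrays limits the precision. The methods call the samples biological replicates.

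Members and gene lists were chosen with earlier results of these data known. All members with a probe are named, with the 2 nearest in pattern for each tip-growth member, and pathway genes and markers only where the study's tables or the RefSeq table (assembly ASM3414082v1) annotate the identifier. Alternatives were quantile normalization, normexp on the median signal (offset 50), no scaling, the authors' values, no filter, the brightest probe, the slide as a block and each array left out. The 75th percentile of detected probes was added for the comparisons and spreads after seeing the data. The Python packages were numpy 2.4.6, pandas 2.3.3, scipy 1.17.1 and matplotlib 3.10.9.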

Additional observations from a re-analysis of the deposited data

How the results depend on the processing

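With 4 arrays and 2 residual degrees of freedom, the confidence intervals of the ADF differences were wide. No ADF probe was called for the cultivar label under any alternative run; over the whole array, 1 call in the main setting became 64 (31 higher, 33 lower) with quantile normalization, 0 with normexp, no scaling, the authors' values, the 75th percentile of detected probes or no filter, 1932 with the slide as a block and 0 to 4626 with an array left out (the most without replicate 3). For the slides, 1130 calls became 178 with quantile normalization, 0 with normexp, 9563 without scaling, 3140 in the authors' values, 3132 with no filter and 0 to 3503 with an array left out (0 without replicate 1 or 2, the most without replicate 3); ADF calls were 4 without scaling, 1 in the authors' values and otherwise 0. The SD without scaling was 0.430 for Os02g0663800, 1.12 for Os07g0484200 and 0.633 for the median of the others, and in the authors' values 0.343 and 1.05 for the tip-growth members. With an array left out it was 0.0986 to 0.251, 0.272 to 0.776 and 0.288 to 0.443 for the 3. No scaling and the authors' values move the median of all probes by 1.02 and 0.28 (cultivar label) and by 1.08 and 0.48 (slides). Under these, the differences that turned in sign for the label were 0.49 and 0.31 for Os02g0663800, 0.60 and 0.45, and 0.67 and 0.48, for the probes of Os03g0780400, 0.47 and 0.39 for Os03t0820600-01 of Os03g0820600, 0.19 and 0.061 for Os04g0555700, and 0.46 and 0.31 for Os05g0113400. For the slides they were 0.74 and 0.59 for Os02g0663800, 0.69 and 0.50, and 0.60 and 0.48, for the probes of Os03g0780400, 0.41 and 0.32 for Os03g0820600, 0.59 and 0.45 for Os04g0555700, 0.60 and 0.45 for Os05g0113400, and, without scaling only, 0.22 for Os12g0628100. With normexp the label difference turned to -0.33 and -0.40 for the Os10g0521100 probes and -1.04 for Os12g0628100, and the slide difference to -0.035 for Os03t0820600-02 and 0.56 for Os12g0628100. With the slide as a block it turned to -0.24 for Os07g0484200, -0.63 for Os03g0820500 and 0.077 for a probe of Os03g0780400. For Os12g0628100 it turned to -0.20 with quantile normalization, and with an array left out it lay between -0.056 (without replicate 3) and 0.94 (without replicate 2). The mean levels that moved by more than their SD were those of 3 genes: Os03g0820600 was 17.36 by its brightest probe, and Os10g0521100 and Os12g0628100 were 7.91 and 7.99 with normexp. Beyond the changes that a scaling makes by construction, the cause was not tested. No paired analysis was possible because the 4 arrays form 1 group and no 2 groups share replicate numbers.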
